A study of Mus musculus with 48 samples.

Results

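The NMDA receptor subunit genes Grin1, Grin2a, Grin2b, Grin2c, Grin2d and Grin3a were followed through hippocampal RNA sequencing of 48 CD-1 mice, a widely used outbred stock. The 6 genes were taken by symbol from a table of 57126 gene identifiers, and all 6 were among the 16360 genes with enough counts to be tested. The labels place 24 males and 24 females, aged 2 months, in 8 groups of 6 animals: control, lead (Pb), manganese (Mn) and lead with manganese (Pb+Mn) in each sex. Exposed dams drank water with Pb at 100 ppm, Mn at 2 g/L, or both at these levels. Exposure ran from 2 weeks before mating to weaning on postnatal day 21, 8 weeks in all, and the offspring were sampled after it had ended; what the control dams drank is not given in the labels. The dose that reached each pup and the litter of each animal are not given either, so p-values reflect variation from animal to animal, and littermates may be among them.

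The NMDA receptor is a glutamate-gated calcium channel. Its core subunit GluN1, which binds the co-agonists glycine and D-serine, is made by Grin1 and is needed in every receptor. The glutamate-binding GluN2 subunits are made by Grin2a to Grin2d, and they set the channel's opening time, its block by magnesium and its signalling partners; Grin3a makes GluN3A, a glycine-binding subunit that lowers calcium entry. In the rodent hippocampus the receptor triggers long-term potentiation and depression, GluN2B is abundant from birth, and GluN2A increases during the weeks around weaning. Lead blocks the receptor channel, and the ratio of Grin2a to Grin2b marks the developmental exchange of subunits.

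The 6 genes lie on different chromosomes: Grin1 on 2, Grin2a on 16, Grin2b on 6, Grin2c on 11, Grin2d on 7 and Grin3a on 4. Since they are 1 family, their coding sequences were compared to see whether reads could be shared among them (GENCODE M21 transcripts, build GRCm38). The longest run of bases shared by any pair was 34, between Grin2b and Grin2c, followed by 32 between Grin2c and Grin2d, and both are shorter than the reads of 100 bases. Grin2a and Grin2b, whose ratio is given below, shared a run of at most 24 bases. An antisense gene, Grin1os, overlaps Grin1 and held 2 to 45 counts per library, and the sources used here do not say how strand was used in counting.

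Total counts per library ranged from 6.27 to 27.6 M (M, mega; median 15.1 M), and a member held between 90 and 14026 counts in a library. All 5 listed neuronal and all 5 glutamatergic neuron markers were present, at summed levels of 4340.1 to 7581 and 2062 to 4549.7 CPM (counts per M of the TMM-scaled library total). Markers of dentate granule cells (293 to 682 CPM summed), CA1 pyramidal neurons (303 to 1529.8) and CA3 pyramidal neurons (109 to 193) were present in every library as well. Markers of neighbouring tissue varied more, from 90.2 to 1153 CPM (median 227) for the 9 thalamus and habenula genes and from 50 to 6640.1 CPM (median 688) for the 5 choroid plexus genes, and of the 5 cerebellar granule cell genes, Gabra6 and Cbln3 had medians of 0.0 and 0.322 CPM. Libraries also differed in how reads fell off with the length of the transcript, measured as a length trend. This is the regression slope of log2 CPM, centred per gene, against log2 transcript length over 11765 genes. A negative slope means relatively fewer reads from long transcripts, and it was lowest in male Pb 6 (-0.4), female Pb 2 (-0.357) and female control 1 (-0.279), where the number is the animal's number in the labels; the highest slope was 0.158. In whole tissue, fewer cells of a type and less RNA per cell cannot be told apart.

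Among the 6 genes, Grin1 was the most abundant per length. On the scale of CPM per kilobase of merged exons, its median over 48 libraries was 37.2, followed by Grin2b at 16.2, Grin2c at 13.2, Grin2a at 12.6, Grin3a at 2.92 and Grin2d at 2.31. Grin1 was above Grin2b in 48 of 48 libraries, by a median of 2.23 times (range 1.44 to 5.79). Grin2b was above Grin2c in 33 of 48 libraries, and Grin2c above Grin2a in 23 of 48, so these neighbours were not separated. Grin2a exceeded Grin3a in all 48 libraries, by a median of 4.39 times. Grin3a exceeded Grin2d in 42 of 48. With the length of the longest transcript in place of merged exons, Grin2a and Grin2c changed places (medians 15.5 and 13.6), so the order of these genes depends on the transcript assumed. On that scale Grin1 was again above Grin2b in 48 of 48 libraries, by a median of 4.91 times (range 3.15 to 12.7), so the size of this ratio depends on it too. Of the summed GluN2 level per length of merged exons, Grin2b made up 35.5 ± 5.13%, Grin2c 29.9 ± 7.25%, Grin2a 29.0 ± 3.8% and Grin2d 5.61 ± 1.75% (mean ± SD, n = 48). These shares were not computed with the longest transcript.

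In CPM, which is not divided by length, Grin2b ranged over the 48 libraries from 160.4 to 771 (mean 405 ± 128 SD) and Grin2a from 90.9 to 463 (239 ± 76.0). Grin1 ranged from 189 to 598 (364 ± 77.8). The lowest value of each of these 3 genes was in female Pb 2 and the highest in female Pb 5, which are animals of the same group. Grin2c had the smallest relative range, from 48.1 to 86.8 CPM (65.3 ± 9.32). Grin2d ranged from 9.25 to 29.6 CPM (16.2 ± 3.73) and Grin3a from 20.2 to 57.9 CPM (35.7 ± 6.79). Within groups, the SD of log2 CPM was 0.475 for Grin2b, 0.458 for Grin2a, 0.321 for Grin1, 0.319 for Grin2d, 0.31 for Grin3a and 0.215 for Grin2c. The median gene tested had 0.282, and 78.7% of genes varied less than Grin2b.

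**Figure D1:**
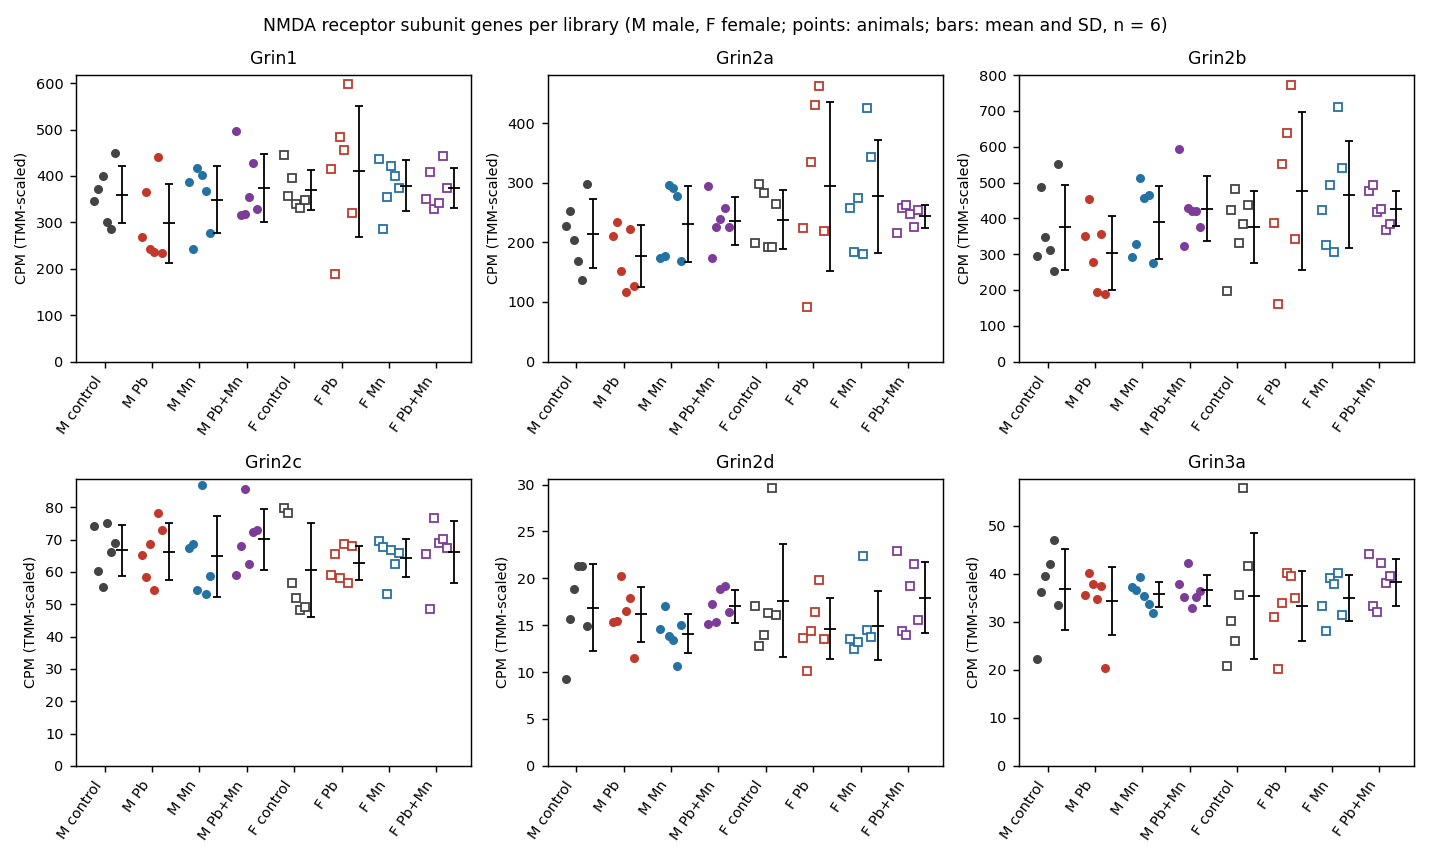
Level of each NMDA receptor subunit gene (CPM, TMM-scaled, vertical axes from 0) in each animal, by sex and exposure (M, male, filled; F, female, open), with the mean and SD of 6 animals beside the points. Ranges overlap between all groups of a sex, and Grin1, Grin2a and Grin2b spread widest in female Pb, from 189 to 598 CPM for Grin1.

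Exposure was compared with control within each sex, to ask whether subunit expression in adult offspring differed after lead, manganese or both. None of the 6 genes passed an adjusted p of 0.05 in any of 19 comparisons (edgeR quasi-likelihood F test over all 16360 genes, Benjamini-Hochberg). This count stands against a background of 0.0% of genes called in every comparison of exposures and in every interaction, 0.0428% (7 genes) between female and male controls, and 0.0917% (15 genes) for the average difference between the sexes. At an unadjusted p under 0.05, 2 of the 114 results of single members passed, namely Grin2a in the average sex difference and Grin2d in the Pb by Mn interaction of females. DESeq2, where it gave an adjusted p, and limma voom also called no member. Over all genes, an unadjusted p under 0.05 was found against control for 11.5% in male Pb, 1.92% in male Mn, 2.24% in male Pb+Mn, 2.25% in female Pb, 2.59% in female Mn and 1.46% in female Pb+Mn. For Pb+Mn against Pb and against Mn the shares were 22.3% and 3.81% in males and 3.71% and 2.38% in females. They were 1.08% between the controls of both sexes, 3.61%, 9.46% and 6.77% for the average Pb, Mn and sex effects, 13.1% and 3.17% for the Pb by Mn interaction in males and females, and 1.89%, 0.844% and 0.568% for the interactions of sex with Pb, Mn and Pb+Mn.

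No member's range of CPM lay clear of that of the other group in any of the 11 comparisons of 2 groups. Among all genes the ranges were apart for 0.202%, 0.11% and 0.177% in male Pb, Mn and Pb+Mn against control, and for 0.0306%, 0.0856% and 0.0733% in the same comparisons of females. They were apart for 0.972% and 0.257% in male Pb+Mn against Pb and Mn, 0.153% and 0.141% in females, and 0.0978% between controls.

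Grin1, the obligatory subunit, had a lowest, median and highest level of 286, 359 and 449 CPM in male controls and of 234, 256 and 439.8 in male Pb. In male Pb, 4 animals were below the lowest control, at 234 to 269 CPM, and 2 lay within the control range. The log2 fold change was -0.27 ± 0.18 (SE; 95% interval -0.62 to 0.09; edgeR adjusted p = 0.52). In male Mn the values were 243, 377 and 416 CPM, and in male Pb+Mn 315, 342 and 497, with log2 fold changes against control of -0.04 ± 0.18 and 0.06 ± 0.18. Female controls had 331, 353 and 445 CPM and female Pb 189, 435 and 598, so the exposed range enclosed that of the controls. The log2 fold change in females was 0.15 ± 0.18 (95% interval -0.20 to 0.50; edgeR adjusted p = 1.0) after Pb, 0.04 ± 0.18 after Mn and 0.02 ± 0.18 after Pb+Mn.

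Grin2a, whose subunit gives the faster-closing receptor of the adult brain, had 137, 216 and 298 CPM (lowest, median, highest) in male controls and 116, 181 and 235 in male Pb. In females the values were 192, 232 and 298 CPM in controls and 90.9, 279.6 and 463 after Pb. The groups of each sex overlapped. The log2 fold change after Pb was -0.28 ± 0.24 in males (edgeR adjusted p = 0.63) and 0.30 ± 0.24 in females (edgeR adjusted p = 1.0). After Mn it was 0.11 ± 0.24 in males and 0.22 ± 0.24 in females, and after Pb+Mn 0.14 ± 0.24 and 0.03 ± 0.24. The 95% intervals, which are not adjusted over genes, reached 0.49 on the log2 scale to either side of the estimate. Changes of this gene of up to about that size could not be resolved between groups of 6, and a call after adjustment over all genes asks for larger ones.

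Grin2b, which makes the slower-closing subunit that predominates early in life, had 254, 329.7 and 552 CPM in male controls and 189, 315 and 454 in male Pb. Male Pb 6, at 189 CPM, and male Pb 4, at 195 CPM, lay below every male control, and the other animals lay within the control range. Female controls had 197, 404 and 483 CPM and female Pb 160.4, 469.8 and 771. Female Pb 3, 4 and 5, at 552, 639 and 771 CPM, were above every female control, while female Pb 2 was below all of them. The log2 fold change after Pb was -0.30 ± 0.25 in males (95% interval -0.81 to 0.21; edgeR adjusted p = 0.62) and 0.34 ± 0.25 in females (-0.17 to 0.85; edgeR adjusted p = 1.0). After Mn it was 0.05 ± 0.25 in males and 0.31 ± 0.25 in females, and after Pb+Mn 0.19 ± 0.25 in each sex. Over 23 alternative fits, the estimate for female Pb against control ran from 0.15 to 0.52 for Grin2b. It ran from 0.13 to 0.49 for Grin2a and from 0.01 to 0.30 for Grin1, and the upper ends were those without female Pb 2. Without female Pb 2, the estimate for female Pb against control was 0.52 for Grin2b, 0.49 for Grin2a and 0.30 for Grin1 in place of 0.34, 0.30 and 0.15 (unadjusted p = 0.031, 0.029 and 0.065; edgeR adjusted p = 1.0 for each).

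Opposite signs of these estimates in males and females after Pb were tested as a sex by Pb interaction. The interaction was 0.42 ± 0.25 on the log2 scale for Grin1, 0.58 ± 0.34 for Grin2a and 0.64 ± 0.36 for Grin2b (unadjusted p = 0.099, 0.10 and 0.08; edgeR adjusted p = 1.0 for each), so a difference between the sexes was not called. The length trend was lower on average in the male Pb group, at -0.105 ± 0.161, than in male controls at 0.001 ± 0.077, with overlapping values (SD, n = 6). In females it was -0.007 ± 0.191 after Pb against -0.003 ± 0.142 in controls. Female Pb ran from -0.357 in animal 2 to 0.158 in animal 5, and female controls from -0.279 in animal 1 to 0.088 in animal 5. Female Pb 3 and 4 were at 0.111 and 0.115, and female Pb 1 and 6 at -0.004 and -0.067. With the trend as a covariate the interactions were 0.20 for Grin1, 0.11 for Grin2a and 0.16 for Grin2b. Without male Pb 6 and female Pb 2, the lowest libraries in the trend, they were 0.49, 0.67 and 0.71, with unadjusted p between 0.029 and 0.034 and an edgeR adjusted p of 0.76 for each of Grin1, Grin2a and Grin2b.

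The combination was also set against lead alone. In males, Grin1 in Pb+Mn was 0.33 ± 0.18 above Pb on the log2 scale, Grin2a 0.41 ± 0.24 and Grin2b 0.49 ± 0.25 (edgeR adjusted p = 0.26, 0.31 and 0.24). Every male Pb+Mn animal was above the male Pb mean for Grin1 and Grin2b, and 5 of 6 were for Grin2a, but the ranges overlapped, at 323 to 593 CPM against 189 to 454 for Grin2b. All 6 members had positive estimates in this comparison, with a median of 0.21 against -0.01 over all genes tested, of which 48.1% were positive. Without male Pb 6 and female Pb 2, Grin2d and Grin3a had estimates of -0.01 and -0.03. The number of all genes called here rose from 0 to 227 with DESeq2, 471 with library weights in limma voom, and 1047 and 1129 without male Pb 2 and male Pb 5, and no member was among them in any of these fits. With the length trend as a covariate the estimates were 0.12 for Grin1, -0.03 for Grin2a, -0.05 for Grin2b, 0.17 for Grin2c, -0.04 for Grin2d and -0.16 for Grin3a, so 4 of the 6 were negative. Summed dentate granule cell markers were 366 ± 70.2 CPM after Pb alone and 509.8 ± 84.1 after both metals, with ranges of 312 to 476 and 370.2 to 574 that overlapped. Male controls ranged from 314 to 647 CPM. Their median was 509, against 325 after Pb alone and 553 after both metals, so the lowest median of the 3 was that of male Pb. The CA1 markers were close after Pb alone and after both metals, at 648 ± 203 and 669 ± 171 CPM (SD, n = 6). The part of cell content in the subunit values was not tested. In females, the same comparison gave -0.13 ± 0.18 for Grin1, -0.27 ± 0.24 for Grin2a and -0.15 ± 0.25 for Grin2b.

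Grin2c, whose subunit is best known from cerebellar granule cells and is also made by astrocytes, had the smallest errors of the 6 genes. Its group means lay between 60.7 ± 14.5 CPM in female controls and 70.1 ± 9.4 in male Pb+Mn (SD, n = 6). Female controls ranged from 48.1 to 79.9 CPM, and male Mn from 53.2 to 86.8. Its log2 fold changes against control ranged from -0.04 to 0.13, each with an SE of 0.12, and 95% intervals such as -0.29 to 0.21 for male Mn.

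Grin2d, an interneuron and diencephalic subunit with low magnesium sensitivity, and Grin3a were the least abundant members. Grin2d had 9.25, 17.3 and 21.3 CPM in male controls (lowest, median, highest) and 10.7, 14.2 and 17.0 in male Mn. In females it had 12.8, 16.2 and 29.6 CPM in controls, 10.1, 14 and 19.8 after Pb, 12.5, 13.6 and 22.4 after Mn, and 14, 17.4 and 22.9 after Pb+Mn. Its Pb by Mn interaction in females, the amount by which the combination exceeded the sum of both metals, was 0.52 ± 0.26 on the log2 scale (95% interval 0.00 to 1.03; unadjusted p = 0.049; edgeR adjusted p = 0.99), where 3.17% of all genes had an unadjusted p under 0.05. Without female control 5 the interaction was 0.32 (unadjusted p = 0.19), and the fold changes of Grin2d in female Pb and female Mn against control went from -0.26 and -0.22 to -0.05 and -0.02. Female control 5, with 29.6 CPM of Grin2d, also held 942 CPM of thalamus and habenula markers, against a median of 227 over all libraries.

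Grin3a differed between exposed and control groups by -0.10 to 0.11 on the log2 scale, each with an SE of 0.17. It had 22.3, 37.8 and 47.0 CPM in male controls and 20.4, 36.5 and 40.1 in male Pb. In female controls it spread from 20.9 to 57.9 CPM, which enclosed every other female animal except female Pb 2, at 20.2 CPM.

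Averaged over both sexes and over the presence of the other metal, the estimates had smaller errors. The average Pb effect lay between -0.03 ± 0.12 for Grin2a and 0.05 ± 0.09 for Grin2d on the log2 scale, and that for Grin2b was 0.01 ± 0.13 (95% interval -0.24 to 0.27). The average Mn effect was 0.17 ± 0.13 for Grin2b (-0.08 to 0.43; edgeR adjusted p = 0.63), 0.12 ± 0.12 for Grin2a and between -0.03 and 0.06 for the other 4 genes. The estimates with their intervals are drawn in the plot of fold changes.

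**Figure D2:**
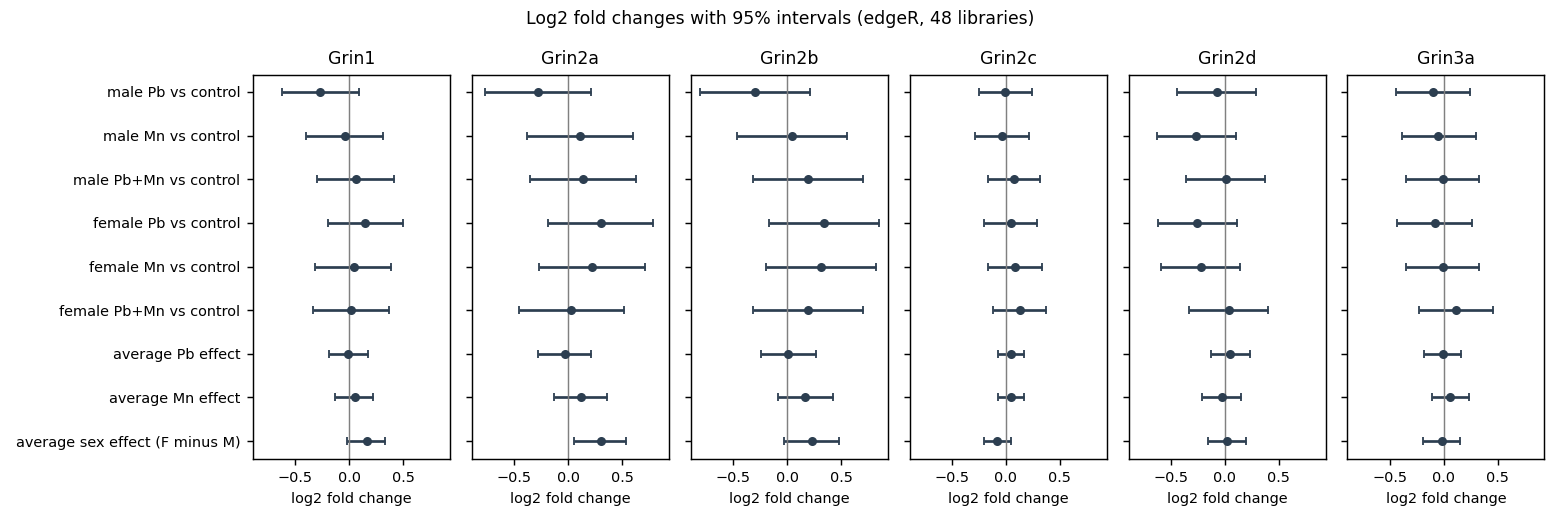
Log2 fold changes of the 6 genes with 95% intervals, from 1 edgeR fit of 48 libraries, for each exposure against its control, the average Pb and Mn effects and the average sex effect (F minus M, female minus male). Every interval spans 0 except that of Grin2a for sex (0.05 to 0.54, before adjustment over genes), and those of Grin2c are the narrowest.

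Sex was compared over all exposures. Grin2a had 116, 224 and 298 CPM (lowest, median, highest of 24) in males and 90.9, 256 and 463 in females, and its group mean was higher in females under each of the 4 exposures. The average difference was 0.30 ± 0.12 on the log2 scale (1.23-fold, 95% interval 1.04 to 1.46; unadjusted p = 0.018), but it did not pass adjustment over all genes (edgeR adjusted p = 0.72), and 6.77% of all genes had an unadjusted p under 0.05. Grin2b was 0.23 ± 0.13 higher in females and Grin1 0.16 ± 0.09 (edgeR adjusted p = 0.74 for both). Grin2c, Grin2d and Grin3a had estimates of -0.08, 0.02 and -0.02. With the length trend as a covariate, Grin2a was 0.18 higher in females (edgeR adjusted p = 0.69). In controls alone the sexes differed by 0.15 ± 0.24 for Grin2a and 0.00 ± 0.25 for Grin2b.

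The ratio of Grin2a to Grin2b counts is taken within a library, so it does not depend on library size; Grin2b transcripts are longer, so the ratio is of reads and not of molecules. It averaged 0.596 ± 0.0835 over 48 libraries (SD; range 0.451 to 1.01). In males the lowest, median and highest ratios were 0.516, 0.542 and 0.77 in controls, 0.518, 0.595 and 0.666 after Pb, 0.541, 0.594 and 0.639 after Mn, and 0.495, 0.553 and 0.614 after Pb+Mn. In females they were 0.498, 0.596 and 1.01 in controls, 0.567, 0.604 and 0.674 after Pb, 0.556, 0.593 and 0.638 after Mn, and 0.451, 0.596 and 0.665 after Pb+Mn. The groups overlapped, and the 2 highest ratios were those of control animals, female control 1 and male control 1. The within-group SD of the log2 ratio was 0.182, against 0.458 for Grin2a and 0.475 for Grin2b, since the genes moved together from library to library.

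No ratio comparison passed. The log2 ratio after Pb differed from control by 0.03 ± 0.10 in males (two-sided exact permutation p = 0.77) and by -0.09 ± 0.15 in females (exact permutation p = 0.68). After Mn the difference was 0.04 ± 0.09 in males and -0.13 ± 0.15 in females (exact permutation p = 0.73 and 0.50). Over both sexes the average Pb effect was -0.05 ± 0.05 (SE, 24 against 24; permutation p = 0.35) and the average Mn effect -0.07 ± 0.05 (permutation p = 0.21). The smallest p of the 14 ratio comparisons was 0.14, for male Pb+Mn against male Mn (-0.09 ± 0.06, exact permutation test), and after Benjamini-Hochberg adjustment over the 14 the permutation p-values were 0.67 or 0.77. The smallest p that 6 against 6 allows in the exact test is 0.00216. Without female control 1, the female control mean of the log2 ratio was -0.76 ± 0.18 (SD, n = 5) in place of -0.63 ± 0.35 (n = 6), which is the mean of the female Mn group.

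**Figure D3:**
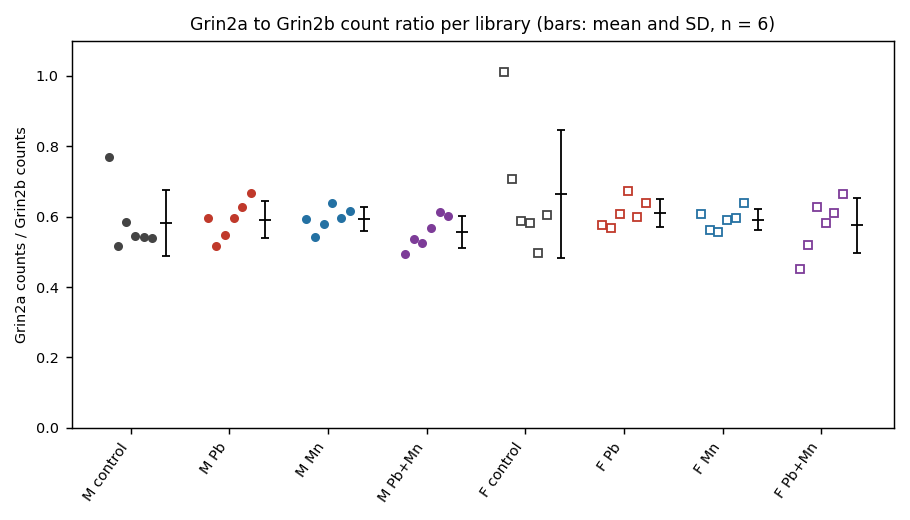
Ratio of Grin2a to Grin2b counts in each library by sex and exposure (M, male; F, female), with mean and SD of 6 animals, on an axis from 0. Group means lie between 0.557 and 0.665, and female control 1 stands highest at 1.01.

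Beyond the groups, the variation of the members from library to library was described. Each gene's log2 CPM was centred on its group mean and set against 8 marker lists and the length trend, also centred, over the 48 libraries (63 correlations with the ratio included; permutation tests with 100000 resamples, Benjamini-Hochberg adjusted over the 63). Of these, 26 passed by Pearson's r, and 22 of the 26 passed by Spearman's rho too. The values describe libraries, some of which may be littermates, and all members of a library share its depth and composition.

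Grin2b followed the length trend with r = 0.92 and rho = 0.93 (permutation p = 1e-05 for both, the smallest the resampling can give; adjusted p = 7.9e-05 and 0.00013). Without the 2 libraries farthest from the median of the trend, male Pb 6 and female Pb 2, r was 0.91. Grin2b has the longest transcript of the members, 24060 bases in the annotation used. The trend is itself a slope on transcript length, over genes that include the members. A gene with a long transcript is therefore expected to follow it, so these p-values do not set a member apart from other genes of its length. How many genes of like length followed the trend as closely was not examined. Grin2a, with 14634 bases, had r = 0.79 and rho = 0.80 (permutation p = 1e-05 for both, adjusted p = 7.9e-05 and 0.00013), and r = 0.73 without the same 2 libraries. For Grin1, with 4276 bases, r was 0.55 and rho 0.48 (permutation p = 0.0001 and 0.00058, adjusted p = 0.00052 and 0.0028), and r was 0.36 without those libraries. Grin3a, with 7491 bases, had r = 0.68 and rho = 0.46 (permutation p = 1e-05 and 0.0012, adjusted p = 7.9e-05 and 0.0053), and r = 0.54 without those libraries. Grin2c, with 4895 bases, had r = -0.33 and rho = -0.35 (permutation p = 0.024 and 0.017), which missed the threshold by r (adjusted p = 0.055) and passed by rho (0.046), and r without those libraries was again -0.33. Grin2d, with 5431 bases, did not pass by either measure (r = 0.32, rho = 0.15; adjusted permutation p = 0.067 and 0.5).

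Cell type markers were examined next. Grin1 and Grin2a followed the CA1 pyramidal neuron markers with r = 0.71 (rho = 0.67) and r = 0.74 (rho = 0.70), and Grin2b with r = 0.60 (rho = 0.55). The permutation p was 1e-05 for Grin1 and Grin2a by both measures and 2e-05 and 0.0001 for Grin2b (adjusted p = 7.9e-05 and 0.00013 for Grin1 and Grin2a, 0.00014 and 0.0007 for Grin2b). Without the 2 farthest libraries r was 0.65, 0.67 and 0.49 for Grin1, Grin2a and Grin2b. Dentate granule cell markers gave r = 0.63, 0.58 and 0.54 for the same genes (rho = 0.61, 0.56 and 0.52; adjusted permutation p by r = 7.9e-05, 0.00019 and 0.00029). The CA3 pyramidal neuron markers did not pass for Grin1, Grin2a or Grin2b (r = -0.05, -0.14 and 0.04, adjusted permutation p = 0.8, 0.48 and 0.85). With the length trend removed from both, these values were -0.21, -0.52 and -0.40. The same step took r with the interneuron markers from 0.19, 0.17 and -0.0 to 0.43, 0.66 and 0.67 for Grin1, Grin2a and Grin2b. Values with the trend removed were given no test. The part of cell content in these correlations was not tested. Grin1 and Grin2a ran against the thalamus and habenula markers, with r = -0.44 and -0.45 (rho = -0.51 for both; permutation p = 0.0018 and 0.00093 by r, adjusted 0.0059 and 0.0033). Grin2b had r = -0.30, which did not pass (adjusted permutation p = 0.086), and rho = -0.34, which did (0.046). Without male Pb 3 and male Mn 2, the libraries farthest from the median of these markers, r for Grin2b was again -0.30. Without male Pb 6 and female Pb 2, r for Grin2b was -0.43 (adjusted permutation p = 0.0091).

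Grin2c followed the astrocyte markers, with r = 0.58 and rho = 0.57 (permutation p = 1e-05 for both; adjusted p = 7.9e-05 and 0.00013), and r = 0.65 without the 2 farthest libraries. With the length trend removed from both, r for Grin2c was 0.61. No other gene of the 6 passed against these markers over all 48 libraries, but Grin3a did so without male Pb 6 and female Pb 2 (r = -0.39, adjusted permutation p = 0.019; -0.28 and 0.11 with them). The difference between the members' correlations was not tested.

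Grin2d and Grin3a followed the thalamus and habenula markers. For Grin2d, r was 0.62 and rho 0.59 (permutation p = 1e-05 and 4e-05, adjusted p = 7.9e-05 and 0.00036). For Grin3a, r was 0.48 and rho 0.43 (permutation p = 0.00038 and 0.0025, adjusted p = 0.0016 and 0.0092). Without male Pb 3 and male Mn 2, which were farthest from the median of the markers, r was 0.60 and 0.49. Both genes also ran against the interneuron markers, with r = -0.52 for Grin2d and -0.53 for Grin3a (adjusted permutation p = 0.0013 and 0.00073), but this fell to -0.35 and -0.32 without male Pb 6 and female control 5. With the CA3 pyramidal neuron markers r was 0.41 for Grin2d and 0.48 for Grin3a (rho = 0.39 and 0.45; adjusted permutation p by r = 0.011 and 0.0016). Against the oligodendrocyte precursor markers Grin2d and Grin3a passed by r (adjusted permutation p = 0.034 and 0.024), and by rho only Grin2d did (0.046 and 0.085). Neither passed without male Pb 6 and female Pb 2 (adjusted permutation p = 0.4 and 0.85). Summed thalamus and habenula markers were 1153 CPM in male control 5, which had 21.3 CPM of Grin2d and 47.0 CPM of Grin3a, the highest of Grin3a among males.

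**Figure D4:**
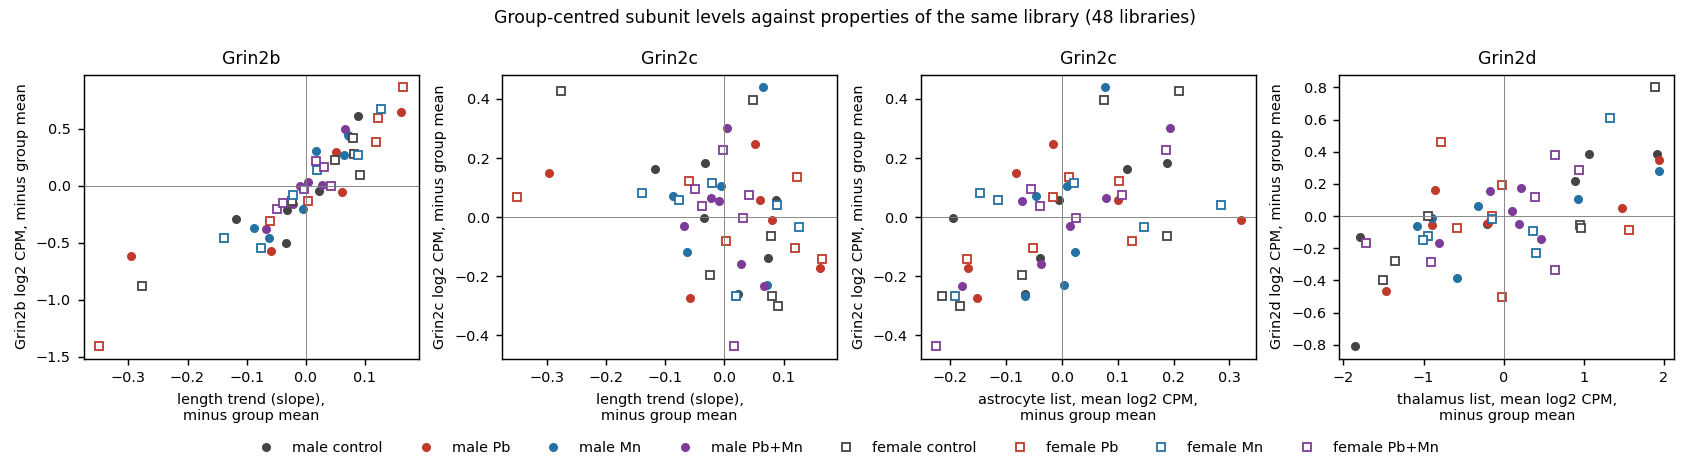
Log2 CPM minus the group mean for Grin2b and Grin2c against the transcript length trend, for Grin2c against the astrocyte list and for Grin2d against the thalamus and habenula list, in 48 libraries marked by group (length trend is a slope; lists are mean log2 CPM, each minus its group mean). Grin2b rises along the trend (r = 0.92), Grin2c does not (r = -0.33) and rises with the astrocyte list (r = 0.58), and Grin2d with the thalamus list (r = 0.62).

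**Figure D5:**
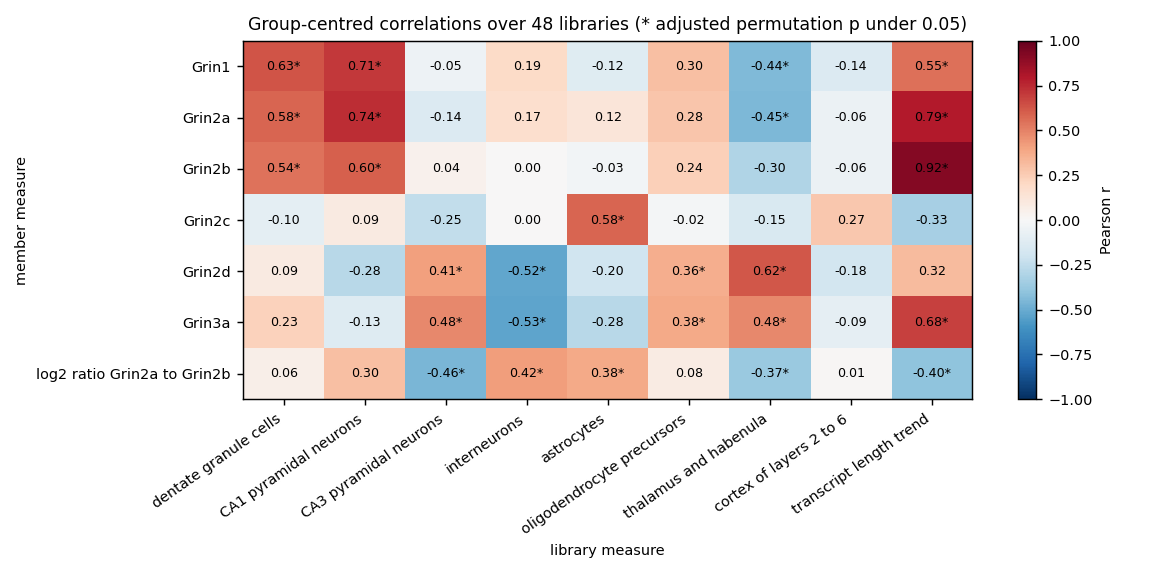
Pearson's r between each member, or the log2 ratio of Grin2a to Grin2b, and each library measure after centring on group means (48 libraries; the colour scale runs from -1 to 1). An asterisk marks an adjusted permutation p under 0.05 over the 63 correlations. Grin1, Grin2a and Grin2b have their highest values with CA1 markers or the length trend, Grin2c with astrocytes (r = 0.58) and Grin2d with thalamus and habenula (r = 0.62); Grin3a combines positive values for the length trend (0.68) and for thalamus and habenula (0.48).

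The ratio ran against the CA3 pyramidal neuron markers, with r = -0.46 and rho = -0.45 (permutation p = 0.0008 and 0.0014, adjusted p = 0.003 and 0.006), and r was -0.39 without male Pb 1 and female control 1. With the length trend the ratio had r = -0.40 and rho = -0.30 (adjusted permutation p = 0.02 and 0.095), so the rank measure did not pass. It followed the astrocyte markers with r = 0.38 and rho = 0.34 (permutation p = 0.0074 and 0.017, adjusted p = 0.02 and 0.046). Against the interneuron and the thalamus and habenula markers the ratio passed by r only (0.42 and -0.37, adjusted permutation p = 0.011 and 0.022; rho = 0.26 and -0.26, adjusted p = 0.15 for both).

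Between the members themselves, 15 pairs were compared. Grin2a and Grin2b had r = 0.92 and rho = 0.91, Grin1 and Grin2a r = 0.76 and rho = 0.71, and Grin1 and Grin2b r = 0.67 and rho = 0.61. Grin2d and Grin3a had r = 0.72 and rho = 0.62. Each of these pairs had a permutation p of 1e-05 by both measures (adjusted over the 15 pairs, 3.7e-05). Without the 2 farthest libraries these values of r were 0.89, 0.63, 0.51 and 0.60. With the length trend removed from both genes, a step chosen after seeing the data, r was 0.82 for Grin2a with Grin2b and 0.73 for Grin2d with Grin3a. The same step turned Grin3a with Grin2a from 0.27 to -0.61 and Grin3a with Grin2b from 0.47 to -0.53. Grin2c had no pair that passed (r from -0.33 to -0.06 with the other 5 genes).

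The genes whose centred levels were most like each member were sought among 11753 genes. For Grin1 they included the histone demethylase gene Kdm4b (r = 0.95) and Cacng8, an auxiliary subunit of AMPA receptors (0.95). For Grin2a they were Sorl1, a sorting receptor (0.97), Tmem132b (0.96) and the semaphorin receptor gene Plxna4 (0.95). For Grin2b they were the transcription factor gene Zeb2 (0.97), the anchoring protein gene Akap6 (0.96) and the microtubule-binding protein gene Camsap2 (0.96). For Grin2c the highest values were lower, at 0.80 for Dlgap3, a postsynaptic scaffold, and 0.76 for Slc9a3r1 and Nsmf. For Grin2d they were Itga3 and the glycine transporter gene Slc6a9 (0.80 each) and Chrna4, a nicotinic receptor subunit (0.79). For Grin3a they were B3glct and Mtss1 (0.87 each) and Dpysl3 (0.86). Likeness over 0.8 was common for some members and rare for others: 693 genes for Grin2b, 457 for Grin1, 432 for Grin2a, 11 for Grin3a and 0 for Grin2c and Grin2d. The values are over 48 libraries and were given no test.

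Genes that supply co-agonist to the receptor, hold it at the synapse, carry it, phosphorylate it or act below it were examined as a list of 48, of which 47 were tested. Dao, which breaks down D-serine, had at most 0.767 CPM and was the gene left out. None passed in any of the 19 comparisons, against the backgrounds given above. The average Pb effect of smallest p in each class was 0.07 ± 0.06 for the amino acid transporter gene Slc1a4, 0.09 ± 0.05 for the scaffold gene Dlg1, -0.12 ± 0.07 for Kif17, the motor that carries GluN2B, -0.04 ± 0.05 for the casein kinase gene Csnk2a1 and 0.18 ± 0.13 for Nos1, the neuronal nitric oxide synthase (edgeR adjusted p = 1.0 for each). For the average Mn effect they were 0.13 ± 0.07 for the D-serine transporter gene Slc7a10, 0.10 ± 0.06 for the scaffold gene Dlgap1, 0.14 ± 0.09 for the receptor kinase gene Ephb2, -0.13 ± 0.06 for Cdk5, a kinase of GluN2 subunits, and 0.17 ± 0.09 for Rasgrf2, a calcium-responsive activator of Ras. The edgeR adjusted p-values of these genes were between 0.52 and 0.59. In males, Pb+Mn against Pb gave 9 of 47 list genes with an unadjusted p under 0.05, where 22.3% of all genes had one.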

How the data were processed

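Hippocampal RNA of 48 mice was sequenced as poly(A)-selected, stranded paired reads of 100 bases, per the labels' protocols. The deposited values are raw read counts per gene in 1 table, and no normalization by the authors was found in them. Per the submitters' processing notes, reads were handled with featureCounts 2.0.6, STAR 2.7.10b and Trim Galore 0.6.9 among other tools, with build GRCm39; counting settings are not given. Of 57126 identifiers, 51884 matched a symbol (99.52% of counts), and 131 with a shared symbol were kept as identifiers. The reference annotation, GENCODE M21, is of another build, so no genome coordinates are printed.

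The 6 genes, the marker and partner lists and the alternatives were chosen with earlier results of these data known. Tests used edgeR 4.0.16 in R 4.3.3 (TMM, filterByExpr, glmQLFit and glmQLFTest, two-sided, 1 term per group, 48 libraries), with SEs taken as approximate from F. CPM are TMM-scaled, and a prior count of 2 was used for log2 CPM. No library repeated another: inside each group, paired libraries showed a chi-square per degree of freedom of 8.9 or more. Ratios were compared by exact permutation over 924 arrangements, or 100000 resamples within strata for averages. Named beside the members are the 3 genes of highest r per member (mean log2 CPM no lower than 2), any partner gene called, and the partner of smallest p per class for the average Pb and Mn effects. Alternatives were DESeq2 1.42.0, limma 3.58.1 voom with and without library weights, no filter, other scalings, only the groups compared, a length trend covariate, a replicate block, a threshold of 0.10, and libraries left out. Some items are not reported here. Of the tests, only the edgeR fit was tried on simulated counts, for male Pb against control.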

Additional observations from a re-analysis of the deposited data

Results flagged for a closer look

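In 56 sets of 6 animals (each member and the ratio in each group), an animal was marked where its gap to the next animal was a large part of the set's range (Dixon's 95% critical value). Chance marks about 1 in 20 sets, and 4 were marked here. Grin2d in female control 5 was 29.6 CPM, with the other 5 female controls between 12.8 and 17.0 CPM, and the same library held 942 CPM of thalamus and habenula markers. Grin2d in female Mn 4 was 22.4 CPM, with the others between 12.5 and 14.5 CPM, and its thalamus and habenula markers summed to 472 CPM. Grin3a in male Pb 6 was 20.4 CPM, with the others between 34.8 and 40.1 CPM, in the library with the lowest length trend of all (-0.4). The ratio of Grin2a to Grin2b in male control 1 was 0.77, with the others between 0.516 and 0.586, and the length trend of this library was -0.117. The part of these library properties in the values was not tested.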

How the results depend on the processing

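No member was called in 1236 fold changes under 11 other settings (smallest adjusted p 0.098, Grin2a for sex with library weights in limma voom) or in 2376 with 1 library left out (smallest 0.09, Grin1 in male Pb+Mn against Pb without male Pb 5), so every count of members called ranged from 0 to 0. The 1236 include the main fit's own values, read at the threshold of 0.10. They also include DESeq2 values without an adjusted p, which were taken as not called. Estimates changed sign in 101 of the 1236 and in 277 of the 2376. The largest shifts came with the length trend covariate, as for Grin2b in male Pb+Mn against Pb (0.49 to -0.05). No ratio comparison passed under any alternative run; male Mn against control without male control 1 came closest when leaving out 1 library (0.12, exact permutation p = 0.026, adjusted 0.36).

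Same-numbered animals were not taken as paired, since their deviations correlated by 0.031 on average (-0.38 to 0.49), against -0.006 (-0.5 to 0.6) for different numbers. Of 48 libraries, 16 correlated best with their own number, a hint from the data and not from the design. With the number as a replicate block, 0 members were called, and the smallest ratio p was 0.052 (average sex effect, permutation, adjusted 0.45). With 6 pairs, the permutation p for 2 groups cannot fall low enough for a single such comparison to pass adjustment over the 14 ratio comparisons. The block setting therefore could not decide the ratio between 2 groups.

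The number of all genes called moved in 6 comparisons. In male Pb+Mn against Pb, 0 became 227 with DESeq2, 471 with library weights, and 1047 and 1129 without male Pb 2 and male Pb 5. With library weights, 3 of 47 partner genes (Dlg3, Ephb2, Rasgrf2) passed, where 471 of 16360 genes did. Without male Pb 5, these passed with Camk2b and Ptk2b, 5 in all, where 1129 genes did. Whether partner genes passed more often than other genes was not tested. In male Pb against control, 0 became 1 without male Pb 2. The average Pb effect gave 4 with DESeq2 or without female control 1 and 3 with the length covariate, and the average Mn effect 1 with DESeq2. Library weights took the average sex effect from 15 to 72, and fitting only the compared groups took the control sex difference from 7 to 4. The causes were not tested. With 6 animals a group and no litters in the labels, differences within the intervals given could not be resolved. Without male Pb 6 and female Pb 2, 28 of 63 correlations passed, 23 of them shared with the 26 of all libraries; that of Grin1 with the length trend did not (adjusted permutation p = 0.079).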
